A study of Mus musculus with 12 samples.

Results

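RAB proteins are small GTPases that mark the membranes of a cell and direct vesicles between them. Each one cycles between a GDP-bound form, held in the cytosol by a GDP dissociation inhibitor, and a GTP-bound form on a membrane, where it recruits effectors such as motors, tethers and fusion factors. Exchange factors (among them the DENN-domain proteins and the TRAPP complexes) load the GTP, and TBC-domain proteins stimulate its hydrolysis. In T cells, members of the family recycle receptors to the surface, carry newly made proteins through the Golgi and drive the release of secretory granules. Rinl (Ras and Rab interactor-like) belongs to the VPS9-domain exchange factors, whose known substrates are RABs of the RAB5 subfamily.

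The genes described here are the RAB GTPases outside that subfamily. They were taken from the deposited gene table as the protein-coding genes named Rab, a number and at most 1 letter. Of 59 such genes, the 6 of the RAB5 subfamily (Rab5a, Rab5b, Rab5c, Rab21, Rab22a and Rab31) were left out, as was Rab4b, which starts on chromosome 7 between 23.8 and 33.8 Mb, the stretch that also holds Rinl. This left 52 genes of 55487 in the table, spread over 18 chromosomes. All 52 have the same start and end in the GENCODE M21 annotation of the mouse build GRCm38.

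The libraries came from CD4+ T cells sorted from the spleen and peripheral lymph nodes of mice. There were 3 libraries in each of 4 groups: Rinl-KO effector cells (sorted as CD44hi), WT effector cells, Rinl-KO naive cells (sorted as CD44lo) and WT naive cells. The effector gate also holds memory cells, and both states came directly from the mice with no stimulation in culture stated. Strain, age and sex were not given in the sources used here, nor were the bases of Rinl that the KO allele changes. Whether the replicate libraries derive from separate mice is not labelled, so the p-values measure the spread between libraries. Libraries are named by the number in their column of the table.

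Rinl itself (chromosome 7, 28788969 to 28798963, plus strand) was at 45.8, 47.5 and 49.4 CPM (counts scaled to library size) in KO effector cells, against 437, 451 and 463 CPM in WT effector cells. It was at 32.6, 32.2 and 34.4 CPM in KO naive cells, against 298, 299 and 285 CPM in WT naive cells. Reads on Rinl were thus low but present in all 6 KO libraries, and each lay below every WT library. Total counts ran from 11606251 to 24320247 per library. The 7 markers of CD4 T cells (Cd3e, Cd3d, Cd3g, Cd4, Lck, Cd28 and Trac) summed to 4197 to 4599.9 CPM across the 12 libraries, and no marker of any list lacked reads in all libraries.

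Promoters of 3 of these genes are shown because the results turn on them. Rab8b and Rab19 had the largest rises in WT cells among RABs that averaged at least 5 CPM in WT effector cells, and Rab8a, the closest relative of Rab8b, did not rise. Each sequence is the 250 bases before the gene's start in RefSeq (GRCm38.p6), on the gene's strand: Rab8b at chr9:66919706-66919955, minus strand, Rab8a at chr8:72160950-72161199, plus strand, and Rab19 at chr6:39381103-39381352, plus strand. The capitals mark exact matches, on either strand, to any of 7 short motifs that were searched.

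Rab8b: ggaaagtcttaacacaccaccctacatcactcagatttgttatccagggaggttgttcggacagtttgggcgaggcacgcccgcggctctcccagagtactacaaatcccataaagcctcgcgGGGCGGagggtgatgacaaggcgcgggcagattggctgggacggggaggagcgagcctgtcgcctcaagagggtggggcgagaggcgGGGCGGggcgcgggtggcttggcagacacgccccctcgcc
Rab8a: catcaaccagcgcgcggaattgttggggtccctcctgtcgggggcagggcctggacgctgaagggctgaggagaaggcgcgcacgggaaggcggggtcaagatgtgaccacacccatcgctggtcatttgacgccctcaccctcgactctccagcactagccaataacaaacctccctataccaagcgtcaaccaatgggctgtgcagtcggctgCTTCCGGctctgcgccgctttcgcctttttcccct
Rab19: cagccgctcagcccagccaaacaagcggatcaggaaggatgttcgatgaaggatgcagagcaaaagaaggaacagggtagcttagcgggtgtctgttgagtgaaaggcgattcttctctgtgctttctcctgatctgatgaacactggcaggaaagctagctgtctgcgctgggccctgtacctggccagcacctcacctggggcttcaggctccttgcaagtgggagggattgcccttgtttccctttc

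The window of Rab8b held 2 copies of GGGCGG, a core bound by SP and KLF factors, that of Rab8a held 1 match to the ETS core CCGGAAG, and that of Rab19 held none of the 7. The deposited gene table starts Rab19 at 39381175, 178 bases before its RefSeq start, so part of its window lies inside the gene by that table. RefSeq promoters were matched for 41 of the 52 RABs. GGGCGG was found in 26 of these 41 (63.4%), against 44.2% of 16802 promoters of protein-coding genes. Median GC content was 60.0% in the RAB promoters and 55.6% in all of them. The ETS core was in 3 RAB promoters (7.3%, against 9.4% of all), the T-box core GGTGTGA in 3 (7.3%, against 3.1%), the RUNX core TGTGGTT in 2 (4.9%, against 3.8%) and the E-box CACGTG in 2 (4.9%, against 6.8%). The AP-1 core TGANTCA and the FOXO core GTAAACA were in 1 each (2.4%, against 6.2% and 2.6% of all). No motif contains another, a match is no evidence of binding, and a window with no match says only that these letters are not in it.

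Most of the RAB family was transcribed in these cells, and the 10 highest genes of each group held 64.9% to 65.7% of its FPKM. Per length, as FPKM, 33 RABs averaged at least 1 in each of the KO and WT effector groups and 31 in each of the KO and WT naive groups. Summed over the 52 genes, the family stood at 795 ± 7.22 FPKM in KO effector cells, 798 ± 4.86 in WT effector cells, 651 ± 5.43 in KO naive cells and 659 ± 0.993 in WT naive cells (SD, n = 3 each). The family sum was higher in every effector library than in every naive library of either genotype. The KO and WT effector libraries overlapped. The KO naive libraries, at 645, 651 and 656 FPKM, all lay below the WT naive ones, at 658, 659.9 and 659 FPKM. This difference was not tested. In bulk samples such as these, a larger share of cells with a transcript and more of it per cell cannot be told apart.

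In WT effector cells the RABs of highest FPKM were Rab1b (80.7 ± 4.71 FPKM), which acts from the endoplasmic reticulum to the Golgi, Rab37 (76.9 ± 1.42), a RAB of secretory granules, and Rab7 (62.7 ± 0.974), which controls late endosomes and lysosomes. They were followed by Rab8b (55.5 ± 2.6 FPKM), which carries cargo to the plasma membrane, and Rab35 (48.1 ± 1.48), which acts in fast recycling (SD, n = 3). The libraries of Rab1b and Rab37 overlapped, and from Rab37 on each of these genes lay above the next in all libraries. In WT naive cells the order was Rab1b (64.8 ± 3.12 FPKM), Rab7 (58.2 ± 0.935), Rab37 (42.5 ± 0.769), Rab35 (42.3) and Rab8a (41.4), and the libraries of Rab37, Rab35 and Rab8a overlapped from each to the next. KO cells had the same 5 leading genes in each state. These 5 genes held 40.6% of the family's FPKM in KO and in WT effector cells, 38.3% in KO naive and 37.8% in WT naive cells.

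By role, RABs of secretion and delivery to the plasma membrane held 33.5 ± 0.35% of the family's FPKM in KO effector cells and 33.8 ± 0.76% in WT effector cells, against 28.3 ± 0.34% in KO naive and 28.4 ± 0.36% in WT naive cells (SD, n = 3 each). RABs of the ER and Golgi held 25.6 ± 0.51% in KO effector and 25.6 ± 0.46% in WT effector cells, against 28.0 ± 0.093% in KO naive and 28.5 ± 0.26% in WT naive cells. Those of late endosomes, phagosomes and autophagy held 16.0 ± 0.42% and 15.9 ± 0.41% in KO and WT effector cells, against 19.2 ± 0.46% and 18.9 ± 0.15% in KO and WT naive cells. RABs of recycling endosomes held 15.9 ± 0.14% and 15.6 ± 0.092% in KO and WT effector cells, against 17.4 ± 0.13% and 17.5 ± 0.3% in KO and WT naive cells. Those of cilia, epithelia and ubiquitin ligases held 6.8 ± 0.23% and 6.7 ± 0.13%, against 4.4 ± 0.13% and 4.2 ± 0.2%. The shares of secretory and of cilium, epithelium and ubiquitin ligase RABs were thus larger, and those of ER, Golgi, late-endosome and recycling RABs smaller, in effector than in naive cells of both genotypes. The family sum was itself larger in effector cells, so a smaller share need not mean a lower level. Single genes also weighed heavily on the larger shares. In WT cells Rab19 averaged 30.3 FPKM in effector against 6.44 in naive cells, Rab8b 55.5 against 20.5 and Rab37 76.9 against 42.5. RABs of lysosome-related organelles held 2.2 to 2.7% in the 4 groups. These shares were not tested.

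**Figure D1:**
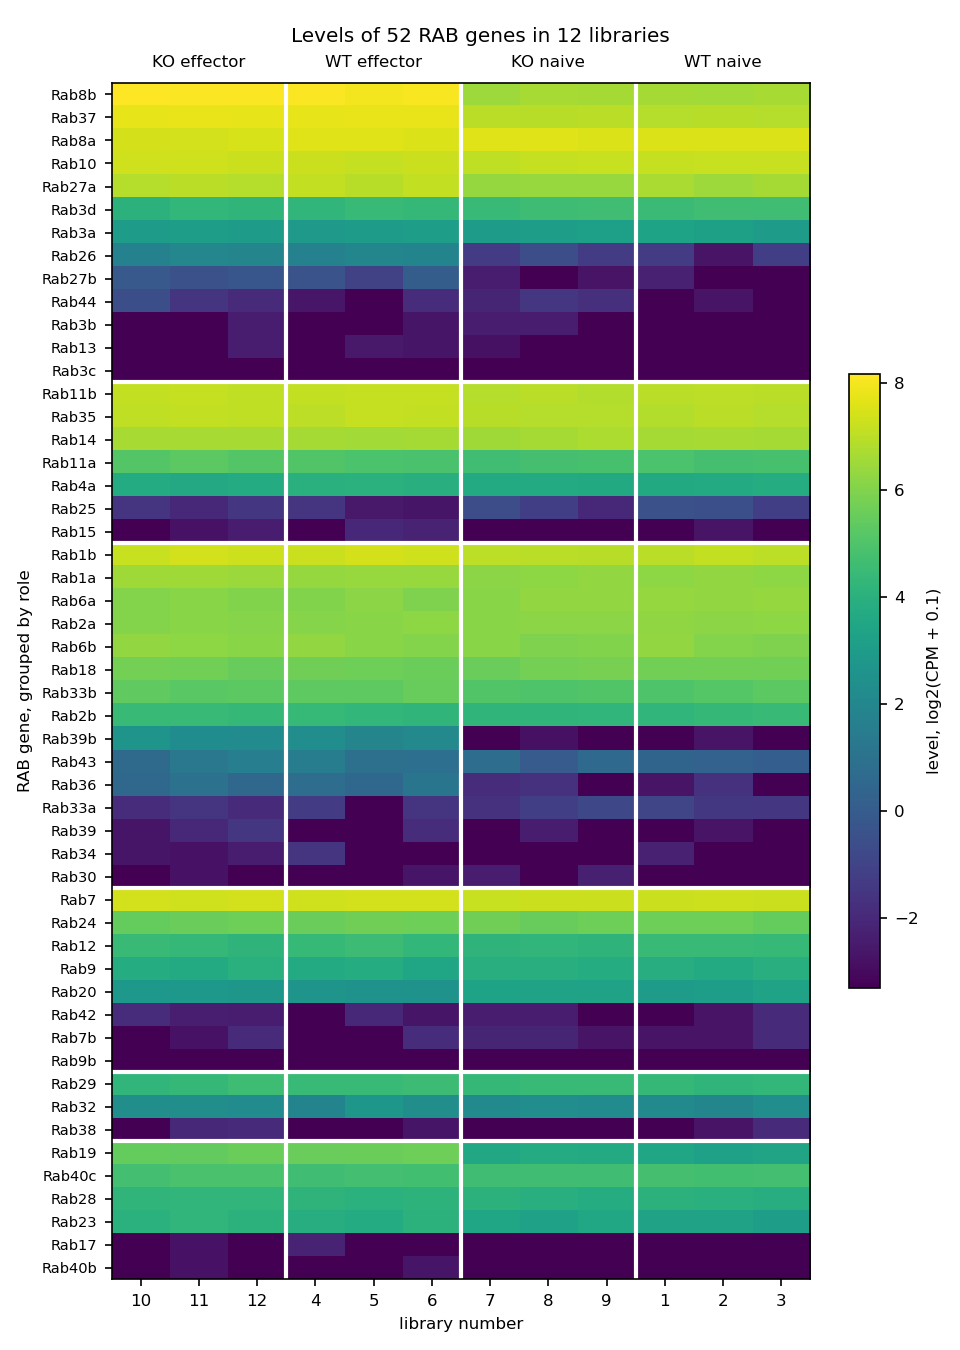
Level of each of the 52 RAB genes (rows, grouped by role) in each of the 12 libraries (columns, KO effector, WT effector, KO naive, WT naive), as log2(CPM + 0.1) on a colour scale. Rab39b, Rab26, Rab36 and Rab27b are higher in the 6 effector libraries than in the naive ones, though low on the scale, and the dark rows are genes with few or no reads.

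Of the 52 RABs, 36 had enough reads to be tested among 15905 genes. The other 16 had between 0 and 67 reads over the 12 libraries together. Rab3c, of neuronal and endocrine vesicles, and Rab9b, a relative of the late-endosome RAB Rab9, had no read in any library, which allows levels of up to 0.0599 CPM in KO effector, 0.0643 in WT effector, 0.0453 in KO naive and 0.0603 in WT naive cells (3 reads over a group, counting error only). Rab3b, Rab7b, Rab13, Rab15, Rab17, Rab30, Rab34, Rab38, Rab39, Rab40b and Rab42 had 2 to 17 reads each over all libraries. Rab25, a RAB11 relative of epithelia, had 10 reads in KO effector, 6 in WT effector, 24 in KO naive and 27 in WT naive cells. Rab33a, a relative of the Golgi RAB Rab33b, had 10, 9, 22 and 16 reads in the same 4 groups, and Rab44 had 17, 4, 13 and 1. No member of these 16 exceeded 0.631 CPM in any library.

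The effector and naive states differed at many RAB genes. In KO cells, 21 of 36 tested RABs rose and 4 fell in effector cells (edgeR's quasi-likelihood test, Benjamini-Hochberg adjusted p below 0.05 over all genes). Among all 15905 genes tested, 58.4% were called, 31.6% as higher and 26.8% as lower. The RABs called made up 69.4%, and the median log2 fold change of the 36 was 0.19, beside 0.01 for all genes. In WT cells, 18 of 36 rose and 3 fell, where 56.2% of all genes were called, 30.2% as higher and 25.9% as lower. The RABs called made up 58.3%, close to that background, and their median was 0.13, beside 0.01 for all genes. Rab26, Rab27b, Rab36 and Rab39b passed the filter on low counts only through their effector libraries and so had to differ. Without them 17 of 32 rose and 4 fell in KO cells, with a median of 0.17, and 14 of 32 rose and 3 fell in WT cells, with a median of 0.11. Of all genes with at least 30 reads in each group, 55.1% were called in WT cells, 26.6% as higher, with a median of -0.02.

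The comparisons in KO and in WT cells share no library, and 19 RABs were called in both, all in the same direction. They are 76.0% of the 25 called in KO cells and 90.5% of the 21 called in WT cells. Over all genes, the calls shared in the same direction were 83.1% of those in KO cells and 86.3% of those in WT cells, so the RABs stood near the rest. The 19 include Rab26, Rab27b, Rab36 and Rab39b. Without these genes 15 calls were shared, 71.4% of 21 in KO cells and 88.2% of 17 in WT cells. Rab10, Rab11a, Rab28, Rab2b, Rab40c and Rab8a were called in KO cells alone, and Rab29 and Rab4a in WT cells alone. The difference between the genotypes' effector-to-naive changes passed the test for none of these 8 genes, nor for any other RAB.

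**Figure D2:**
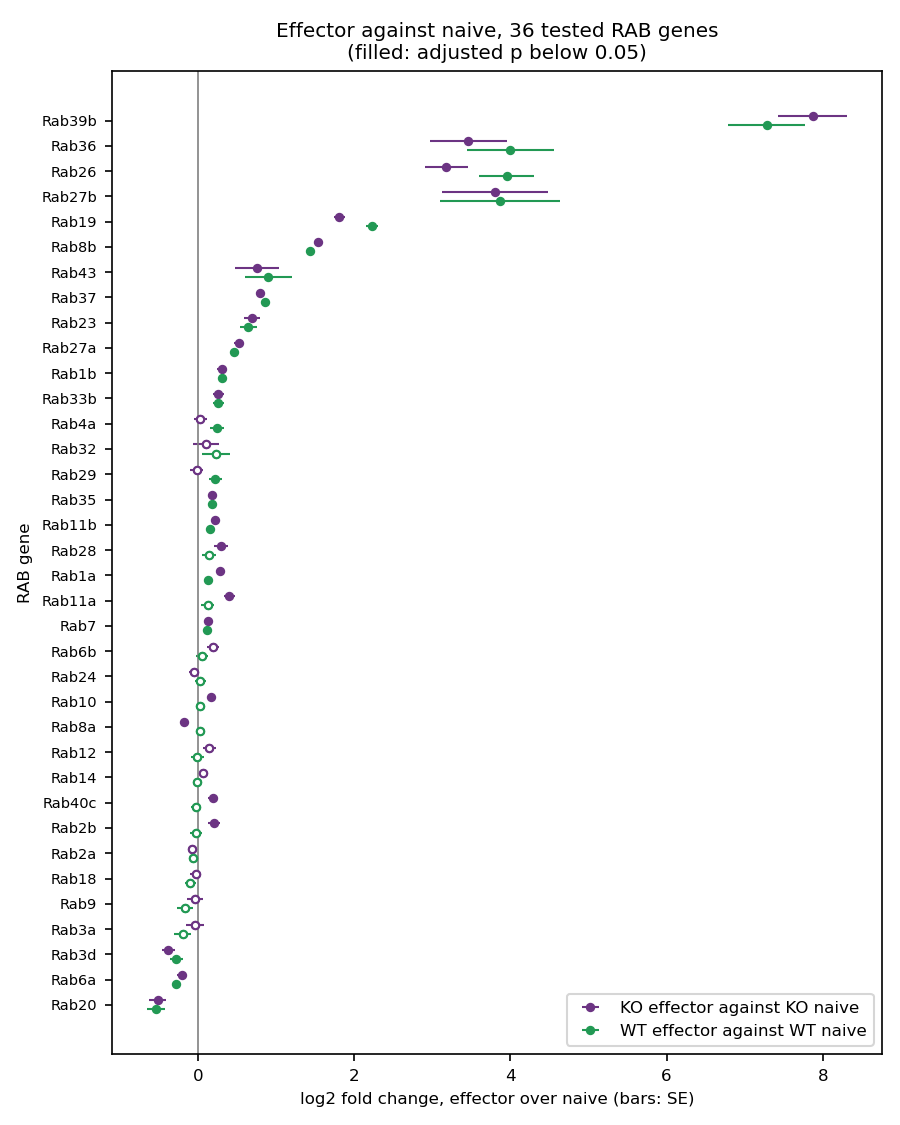
Log2 fold change of the 36 tested RAB genes, effector over naive (x axis, bars are SE), in KO cells (purple) and in WT cells (green), ordered by the WT value. Filled points passed the adjusted p threshold of 0.05, and 18 RABs lie to the right and 3 to the left among the filled WT points. The values of Rab39b and Rab27b rest on 1 to 3 reads in the naive libraries of each genotype.

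The counts by role that follow stand beside the 58.4% of all genes called in KO cells and the 56.2% called in WT cells, and cover only 2 to 11 tested genes each. Secretory RABs had 6 rises and 2 falls among 9 tested in KO cells, and 5 rises and 1 fall in WT cells (median log2 fold changes 0.52 and 0.46). Without Rab26 and Rab27b they had 4 rises and 2 falls among 7 in KO cells, with a median of 0.17. In WT cells they then had 3 rises and 1 fall, 57.1% called, with a median of 0.03. Rab8b, which acts in the delivery of cargo to the plasma membrane, was at 288, 273 and 276 CPM in KO effector and 275, 252 and 266 in WT effector cells, against 88.8, 101 and 98.6 CPM in KO naive and 97.3, 95.6 and 101 in WT naive cells. Every effector library stood above 250 CPM and every naive library near 100. Its level was 2.90-fold higher in effector than in naive cells of KO mice and 2.70-fold higher in those of WT mice (log2 fold changes of 1.54 ± 0.05 and 1.43 ± 0.051 (SE), edgeR adjusted p = 7.0e-18 and 3.6e-17).

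Rab37, a RAB of secretory granules, was at 216, 220.2 and 214 CPM in KO effector and 214, 223 and 218 in WT effector cells, against 128, 124 and 125 CPM in KO naive and 119, 123 and 120.2 in WT naive cells. The effector and naive libraries were apart in both genotypes, with a log2 fold change of 0.79 ± 0.041 in KO and 0.85 ± 0.041 in WT cells (edgeR adjusted p = 3.1e-14 and 1.1e-14). Rab27a, which docks lytic and other secretory granules at the plasma membrane, was at 118, 127 and 117 CPM in KO effector and 139, 124 and 138 in WT effector cells, against 82.4, 85 and 85.5 CPM in KO naive and 105, 88.9 and 99.4 in WT naive cells. It rose by 0.52 ± 0.058 in KO and 0.46 ± 0.058 in WT effector cells on the log2 scale (edgeR adjusted p = 4.1e-08 and 3.9e-07), and effector libraries did not overlap the naive ones of their genotype. Rab3d, a RAB of dense secretory granules, fell instead: it was at 18.8, 21.3 and 20.1 CPM in WT effector cells, against 22.6, 25.2 and 25.1 CPM in WT naive cells. Its log2 fold change was -0.38 ± 0.083 in KO cells (edgeR adjusted p = 3.4e-04) and -0.28 ± 0.084 in WT cells (adjusted p = 0.0074).

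Rab10, which delivers GLUT4 vesicles in fat cells, averaged 159 ± 4.8 CPM in KO effector and 148 ± 4.77 in WT effector cells, against 141 ± 7.16 in KO naive and 146 ± 3.09 in WT naive cells (SD, n = 3 each). Its rise of 0.17 on the log2 scale in KO cells passed edgeR's test (adjusted p = 0.0026) and was lost without KO naive library 7, while the log2 fold change of 0.03 in WT cells did not pass (adjusted p = 0.67). Rab3a, known from synaptic vesicles, stayed between 7.43 and 10 CPM in all libraries and passed in neither genotype. Rab8a is described with the genotypes.

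A group of 4 RABs was nearly silent in naive cells and present in effector cells. All 4 passed the filter on low counts only through their effector libraries and so had to differ. Rab39b, which acts between the ER and the Golgi in neurons, was at 6.09, 4.77 and 4.61 CPM in KO effector and 4.79, 3.66 and 4.15 in WT effector cells, and had 1 read in all KO naive and 1 in all WT naive libraries together. The 197 WT effector reads against that 1 read correspond to a ratio of 210.1, with an exact 95% counting interval from 37.3 to 8340.4. Such intervals, on reads pooled over a group, leave out the spread between libraries. Rab26, of secretory granules and synaptic vesicles, had 181 reads in KO effector and 164 in WT effector cells, against 26 in KO naive and 11 in WT naive cells, a ratio of 15.9 in WT cells (exact 95% interval 8.66 to 32.5). Of the 2852 exonic bases of Rab26, 267 are shared with Traf7 on the same strand, which was at 162 CPM in WT effector and 154 CPM in WT naive cells. Rab36, a Golgi RAB, had 79 and 80 reads in KO and WT effector cells, against 9 and 5 in KO and WT naive cells. Rab27b, the close relative of Rab27a, had 36 and 32 reads in KO and WT effector cells, against 3 and 2 in KO and WT naive cells. Each stayed below 7 CPM in every effector library, and Rab27b below 1. Beside these genes, 6 NK, NKT and gamma-delta T-cell markers summed to 139 to 182 CPM in KO effector and 215 to 221 in WT effector cells, against 16.9 to 20.2 in KO naive and 14.9 to 19.6 in WT naive cells. The 8 B-cell markers summed to 24.4 to 31.3 and 25.3 to 33.7 CPM in KO and WT effector cells, against 4.84 to 6.66 and 2.16 to 3.81 CPM in KO and WT naive cells. The part of such cells in these low levels was not tested.

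RABs of cilia, epithelia and ubiquitin ligases had 4 tested members, of which 4 rose in KO and 2 in WT effector cells (medians 0.49 and 0.39). Rab19, linked to cilium formation in cultured epithelial cells, had the largest fold in WT cells among RABs that averaged at least 5 CPM in WT effector cells: it was at 44.4, 42.9 and 47.3 CPM in KO effector and 47.1, 48.3 and 48.9 in WT effector cells, against 11.9, 13.5 and 12.8 CPM in KO naive and 10.8, 9.56 and 10.3 in WT naive cells. Effector libraries were all above 40 CPM and naive ones all below 14. The fold was 3.52 in KO and 4.70 in WT cells, with log2 fold changes of 1.81 ± 0.071 and 2.23 ± 0.076 (edgeR adjusted p = 1.7e-16 and 1.7e-17). Rab23, known as a negative regulator of Hedgehog signalling in the mouse embryo, was at 14, 13.5 and 16.5 CPM in WT effector cells, against 9.89, 9.67 and 8.71 CPM in WT naive cells. It rose by 0.69 ± 0.1 in KO and 0.64 ± 0.11 in WT effector cells on the log2 scale (edgeR adjusted p = 3.3e-06 and 3.3e-05). Rab28 averaged 18.7 CPM in KO effector and 17 in WT effector cells, against 15.2 in KO naive and 15.4 in WT naive cells. Rab40c, which forms a ubiquitin ligase through its SOCS box, averaged 28.4 and 26 CPM in KO and WT effector cells, against 25 and 26.5 CPM in KO and WT naive cells. These last genes were called in KO cells only, Rab40c at an edgeR adjusted p of 0.016, lost under 7 of 20 alternatives (among them the fits without KO naive library 7, 8 or 9 or KO effector library 11 or 12), and Rab28 at 0.0063, lost without KO naive library 9.

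**Figure D3:**
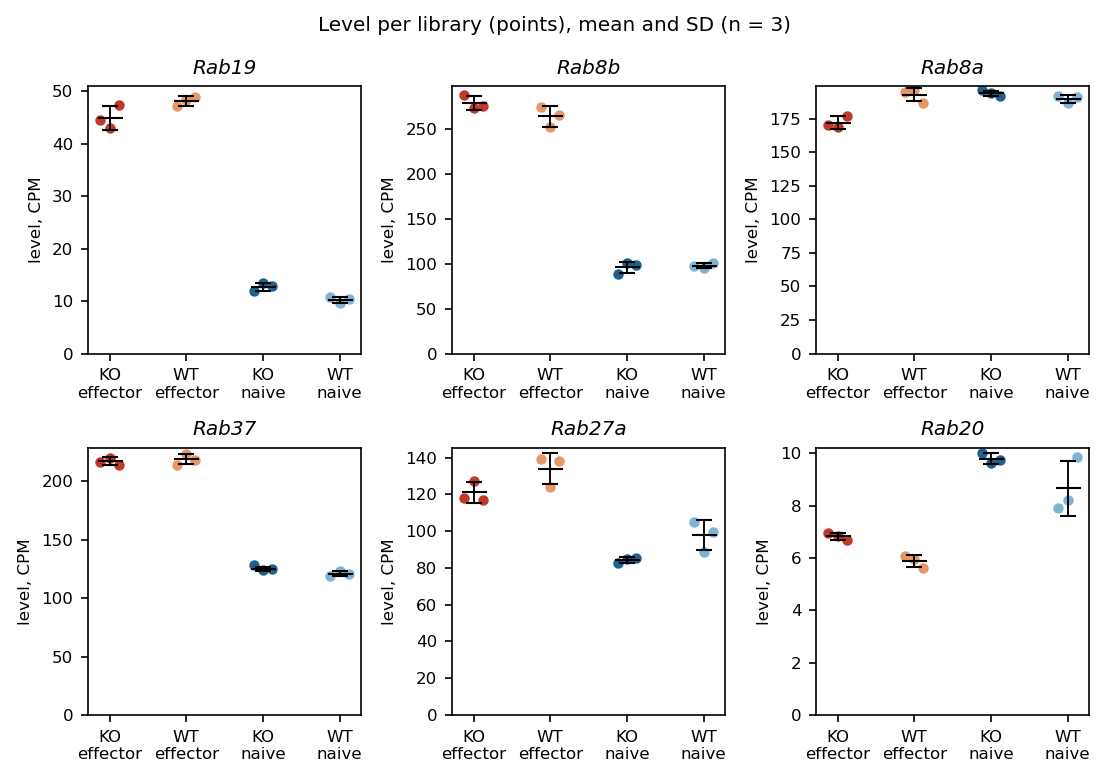
Level in CPM (y axes, from 0) of 6 RAB genes in each library (points), with the group mean and SD (n = 3), for KO effector, WT effector, KO naive and WT naive cells. Rab19, Rab8b, Rab37 and Rab27a are higher and Rab20 lower in effector than in naive libraries of the same genotype, and Rab8a is lowest in the 3 KO effector libraries (169 to 177 CPM).

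RABs of the ER and Golgi had 7 rises and 1 fall among 11 tested in KO cells, and 6 rises and 1 fall in WT cells (medians 0.26 and 0.13). Without Rab36 and Rab39b they had 5 rises and 1 fall among 9 in KO cells, with a median of 0.20. In WT cells they then had 4 rises and 1 fall, 55.6% called, with a median of 0.05. Apart from the low genes Rab39b, Rab36 and Rab43, the called log2 fold changes lay between -0.28 and 0.31. Rab1b, the family's most abundant gene per length, was at 153, 173 and 163 CPM in WT effector cells, against 126, 138 and 129.8 CPM in WT naive cells, and the groups did not overlap. It rose by 0.30 ± 0.053 in KO and 0.31 ± 0.053 in WT effector cells on the log2 scale (edgeR adjusted p = 2.6e-05 and 2.3e-05). Rab33b, a medial-Golgi RAB that also takes part in autophagosome formation, was at 39.9, 40.4 and 44.9 CPM in WT effector cells, against 32.1, 35.1 and 38.3 CPM in WT naive cells, a log2 fold change of 0.26 ± 0.069 (edgeR adjusted p = 0.0027). Rab6a, of transport at the trans-Golgi, fell: it was at 63.9, 72 and 61.9 CPM in WT effector cells, against 80.9, 78.5 and 81.1 CPM in WT naive cells. Its log2 fold change was -0.21 ± 0.059 in KO cells (edgeR adjusted p = 0.0035) and -0.28 ± 0.06 in WT cells (adjusted p = 3.0e-04). Of the 3728 exonic bases of Rab6a, 708 are shared with Mrpl48 on the opposite strand, which was at 16.5 CPM in WT effector and 17.7 CPM in WT naive cells, and the strand setting of the counting was not given in the sources used here.

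Of the other Golgi and ER genes, Rab1a averaged 91.4 CPM in KO effector and 83.2 in WT effector cells, against 75.5 in KO naive and 76.1 in WT naive cells. It rose by 0.28 in KO cells and by 0.13 in WT cells on the log2 scale (edgeR adjusted p = 1.9e-05 and 0.027). The WT call was lost with no filter on low counts and without WT naive library 1 or 3 or WT effector library 5 or 6 (adjusted p up to 0.13 over the alternatives). Rab43 averaged 2.25 and 2.09 CPM in KO and WT effector cells, against 1.31 and 1.11 CPM in KO and WT naive cells. Its WT call was lost without WT effector library 4. Its KO call was lost under 6 of 19 alternatives: DESeq2, limma on log2 of FPKM plus 1 or 0.1, and the fits without KO naive library 8 or KO effector library 11 or 12. Of the 5526 exonic bases of Rab43, 4164 are shared with the gene model Gm45140 on the same strand. Rab2b, with 18.5 to 21.1 CPM as group means, was called higher in KO effector cells alone (0.20 on the log2 scale, edgeR adjusted p = 0.029), a call lost under 8 of 20 alternatives, among them the fits without WT naive library 2, KO naive library 7, 8 or 9, or KO effector library 10 or 11. Rab2a, at 67.8 CPM in KO effector and 70.9 in WT effector cells, against 71.6 and 74.1 CPM in KO and WT naive cells, passed in neither genotype. Nor did Rab6b, at 74 and 71.4 CPM in KO and WT effector cells against 65 and 68.4 CPM in KO and WT naive cells, or Rab18, a RAB of lipid droplets and the ER, at 49.1 to 52.5 CPM as group means.

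RABs of recycling endosomes had 3 rises and no fall among 5 tested in each genotype, 60.0% called and so near the share of all genes (medians 0.18 in KO and 0.15 in WT cells). Rab35, of fast recycling and of the immunological synapse, was at 136, 137 and 136 CPM in KO effector and 132, 141 and 137 in WT effector cells, against 124, 119 and 119 CPM in KO naive and 116, 125 and 120.2 in WT naive cells, and effector and naive libraries did not overlap. Its log2 fold change was 0.18 in both genotypes (edgeR adjusted p = 0.0013 in KO and 0.0011 in WT cells). Rab11b, of slow recycling, rose by 0.22 in KO and 0.15 in WT effector cells on the log2 scale (edgeR adjusted p = 2.4e-04 and 0.0083). Rab11a is its close relative. It was at 33.6, 38.7 and 33.6 CPM in KO effector and 33.3, 30.1 and 29.5 in WT effector cells, against 25, 27.4 and 28.6 CPM in KO naive and 30.3, 27.3 and 27.9 in WT naive cells. Its log2 fold change was 0.40 in KO cells (edgeR adjusted p = 7.2e-05) and 0.12 in WT cells (adjusted p = 0.21). Rab4a, of early recycling, was at 15.6, 16 and 14.8 CPM in WT effector cells, against 12.7, 13 and 13.7 CPM in WT naive cells, a log2 fold change of 0.24 ± 0.088 (edgeR adjusted p = 0.023). That call was lost without WT naive library 1 or 2 or WT effector library 4 or 5, with DESeq2 and with no filter on low counts (adjusted p up to 0.088). Rab14 averaged 98 to 103 CPM in the 4 groups and passed in neither genotype.

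Among RABs of late endosomes, phagosomes and autophagy, 1 of 5 rose and 1 fell in each genotype (medians -0.04 in KO and -0.01 in WT cells). Rab20, which in macrophages acts in phagosome maturation, was at 6.96, 6.84 and 6.7 CPM in KO effector and 6.08, 5.97 and 5.63 in WT effector cells, against 10, 9.61 and 9.73 CPM in KO naive and 7.89, 8.22 and 9.87 in WT naive cells. Effector libraries were all below 7 CPM and naive ones all above 7.8, with log2 fold changes of -0.52 ± 0.11 in KO and -0.54 ± 0.12 in WT cells (edgeR adjusted p = 3.0e-04 and 4.5e-04). Rab7, the main RAB of late endosomes, rose by 0.12 in KO and 0.11 in WT effector cells on the log2 scale (edgeR adjusted p = 0.013 and 0.031), with group means of 164 CPM in KO effector and 165 in WT effector cells, against 151 and 153 CPM in KO and WT naive cells. Both calls were lost with no filter on low counts. The KO call was also lost without KO naive library 7 or 8 and the WT call without WT naive library 1, 2 or 3 or WT effector library 5 or 6. A processed pseudogene, Rab7-ps1, was counted at 34.1 CPM on average. Rab9 (12.5 to 14.4 CPM as group means), Rab12 (18.1 to 21.1) and Rab24 (46.8 to 48.9) passed in neither genotype, and Rab24 shares 62.4% of its exonic bases with Prelid1 on the opposite strand. Of the RABs of lysosome-related organelles, Rab29 averaged 21 CPM in KO effector and 22.4 in WT effector cells, against 21.1 in KO naive and 19.3 in WT naive cells. It was called in WT cells alone (0.22 on the log2 scale, edgeR adjusted p = 0.031), and the call was lost with DESeq2 and without WT naive library 2 or WT effector library 4 or 6. Rab32, with 4.32 to 5.08 CPM as group means, was called in neither.

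The comparison that the design names, KO against WT within each state, called few RABs. In effector cells 1 of 36 RABs was called, Rab8a, and it was lower in KO cells, where 3.16% of all genes tested were called (1.45% higher and 1.72% lower). In naive cells edgeR called 0 of 36, as did DESeq2 and limma-voom, where 1.18% of all genes were called (0.679% higher and 0.497% lower). The median log2 fold change of the 36 was 0.02 in effector and -0.02 in naive cells, beside 0.00 for all genes in both. At an unadjusted p under 0.05, 7 RABs differed in effector cells (Rab8a, Rab1a, Rab4a, Rab27a, Rab11a, Rab10 and Rab23) and 3 in naive cells (Rab19, Rab27a and Rab12). These are 19.4% and 8.3% of the RABs, beside 16.1% and 11.9% of all genes. The 95% interval of the KO effect lay within 0.5 on the log2 scale, a 1.41-fold difference, for 32 of 36 RABs in effector cells and 31 of 36 in naive cells. The lowest fitted KO effect in effector cells was that of Rab4a, at 13.5, 12.2 and 13.5 CPM in KO effector against 15.6, 16 and 14.8 CPM in WT effector cells, a log2 fold change of -0.25 ± 0.088 that did not pass (edgeR adjusted p = 0.14). The intervals that reached beyond 0.5 were those of Rab27b, Rab36, Rab39b and Rab43, with Rab26 in addition in naive cells, all genes of few reads.

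Rab8a, a RAB of delivery to the plasma membrane and the cilium, was at 170.0, 169 and 177 CPM in KO effector cells, against 195, 196 and 187 CPM in WT effector cells. It was at 196, 194 and 192 CPM in KO naive cells, against 192, 187 and 191 CPM in WT naive cells. The KO effector libraries thus lay below all 9 others. The KO effect in effector cells was -0.17 ± 0.041 on the log2 scale, a fold of 0.89 (edgeR adjusted p = 0.028), and in naive cells 0.03 ± 0.041 (adjusted p = 0.82). The difference between these effects, -0.20 ± 0.058, did not pass (edgeR adjusted p = 0.23). Over the alternatives the adjusted p in effector cells ran from 0.0047 to 0.12, and the call was lost without WT effector library 4 or 5 or KO effector library 10 or 11, when the effector libraries were fitted alone and with limma on log2 of FPKM plus 0.1. In the comparison of states, Rab8a fell by 0.18 on the log2 scale in KO effector cells (edgeR adjusted p = 7.1e-04) and had a log2 fold change of 0.02 in WT effector cells (adjusted p = 0.68).

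Beside this call, other cell markers differed between the same libraries. The 5 effector-state markers summed to 2042 to 2236 CPM in KO effector cells, against 2469 to 2592 CPM in WT effector cells, and Tbx21 and Itgb1 of that list fell (log2 fold changes of -0.59 and -0.35, edgeR adjusted p = 1.9e-04 and 2.2e-04). NK-cell, NKT-cell and gamma-delta T-cell markers summed to 139 to 182 CPM in KO effector cells, against 215 to 221 CPM in WT effector cells, and Klrb1c, Klrk1 and Zbtb16 of these 6 fell (log2 fold changes of -0.47, -0.53 and -0.75, edgeR adjusted p = 7.6e-04, 0.037 and 0.024). The other 3 were not called, and 1 of them went the other way (log2 fold change 0.83). Of the naive-state markers, Ccr7, Lef1, Igfbp4 and Satb1 summed to 499 to 559 CPM in KO effector cells, against 563 to 597 CPM in WT effector cells, and Satb1 fell (log2 fold change -0.24, edgeR adjusted p = 0.007). The sum of stromal and endothelial markers was also lower (172 to 175 CPM in KO against 180.1 to 187 CPM in WT effector libraries). Of the 4 tested, however, 2 had positive and 2 negative log2 fold changes, and 0 were called. The sums of plasma-cell markers (5.83 to 10.2 against 2.21 to 4.15 CPM) and of CD8 T-cell markers (7.19 to 8.04 against 5.52 to 6.7 CPM) were higher in KO effector libraries. Of the 2 plasma-cell markers tested, 1 had a positive and 1 a negative log2 fold change, and 0 were called. The 1 CD8 T-cell marker tested was not called (log2 fold change 0.31, edgeR adjusted p = 0.16). B-cell sums overlapped (24.4 to 31.3 CPM in KO against 25.3 to 33.7 CPM in WT effector libraries). Of the 7 B-cell markers tested, 5 had positive and 2 negative log2 fold changes, and 1 was called lower (edgeR adjusted p = 0.035). The part of these genes in the level of Rab8a was not tested.

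**Figure D4:**
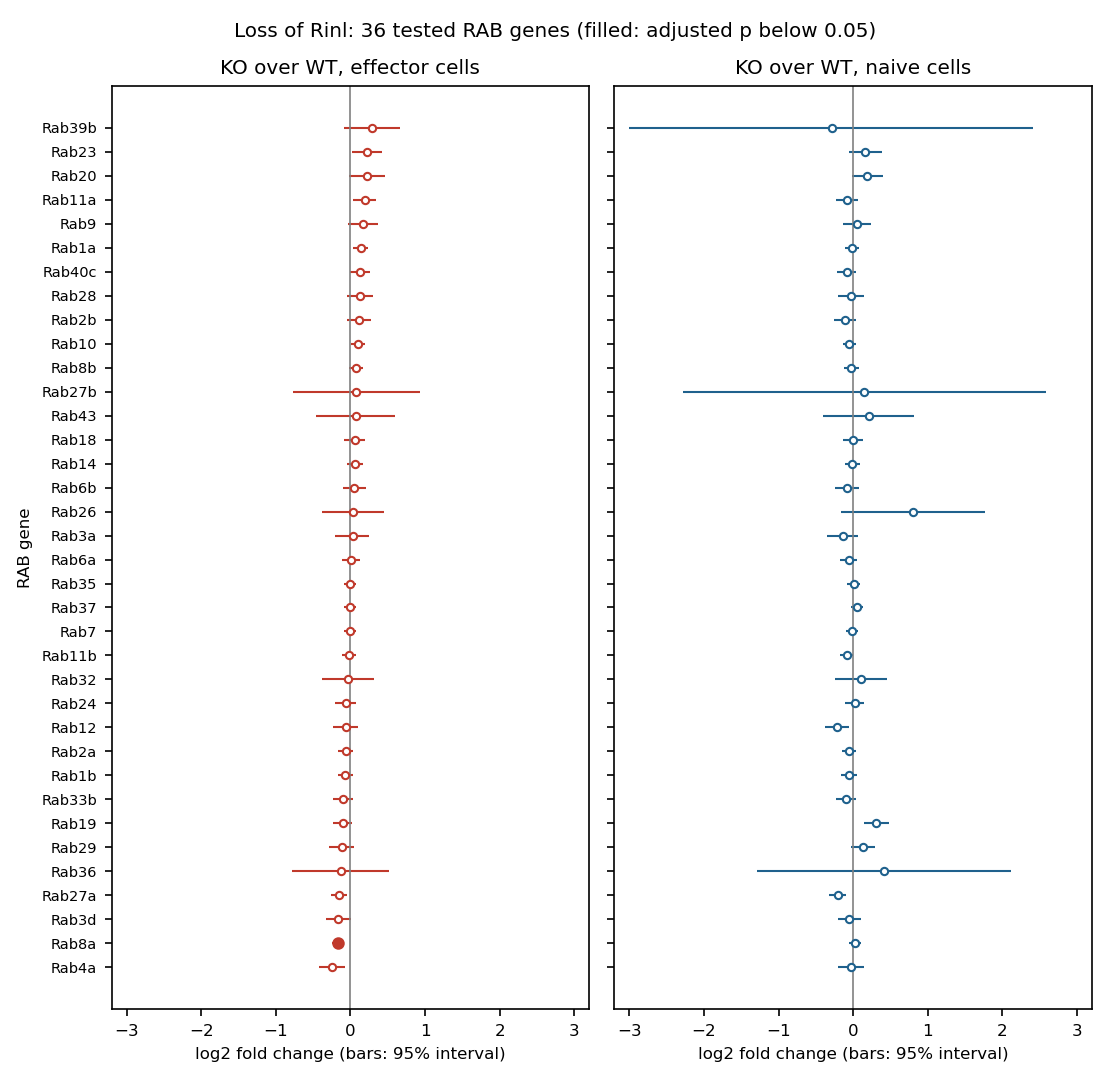
Log2 fold change, KO over WT, of the 36 tested RAB genes in effector cells (left) and naive cells (right), ordered by the effector value, with 95% intervals. Only Rab8a in effector cells, at -0.17, passed the threshold (filled), and the wide intervals belong to genes of few reads.

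No RAB was called in naive cells, and the 3 with the smallest p were these. Rab19 was at 11.9, 13.5 and 12.8 CPM in KO naive cells, against 10.8, 9.56 and 10.3 CPM in WT naive cells, so that the KO libraries were the higher ones, with a log2 fold change of 0.31 ± 0.085 (edgeR adjusted p = 0.074). Rab27a was at 82.4, 85 and 85.5 CPM in KO naive cells, against 105, 88.9 and 99.4 CPM in WT naive cells, all KO libraries below all WT libraries, with a log2 fold change of -0.21 ± 0.058 (edgeR adjusted p = 0.083) and of -0.15 ± 0.057 in effector cells (adjusted p = 0.18). Rab12 was at 17.9, 18.9 and 17.7 CPM in KO naive cells, against 21.1, 21.5 and 20.6 CPM in WT naive cells, a log2 fold change of -0.22 ± 0.084 (edgeR adjusted p = 0.27). The first 2 passed under some alternatives: Rab19 with no filter on low counts, Rab27a with no filter, with the naive libraries fitted alone, and without WT naive library 2 or WT effector library 5. Myeloid markers summed to 11.6 to 19.6 CPM in KO naive and 2.79 to 11.4 CPM in WT naive cells, and effector-state markers to 171 to 184 CPM in KO naive and 153 to 172 CPM in WT naive cells. Of the 5 effector-state markers, 4 had positive and 1 a negative log2 fold change. In KO naive cells 2 of them were called higher (smallest edgeR adjusted p = 0.0095), and 2 were called lower for the difference of the KO effects. B-cell markers summed to 4.84 to 6.66 CPM in KO naive and 2.16 to 3.81 CPM in WT naive cells. Plasma-cell markers summed to 3.89 to 7.73 CPM in KO naive and 0.322 to 2.9 CPM in WT naive cells, and stromal and endothelial markers to 335 to 363 CPM in KO naive and 371 to 379 CPM in WT naive cells. The myeloid, B-cell, plasma-cell and stromal and endothelial sums did not overlap between KO and WT naive libraries, while the effector-state sums did. In each of those lists without overlap, however, 0 genes were called. Of the 2 plasma-cell markers tested, 1 had a positive and 1 a negative log2 fold change. NK-cell, NKT-cell and gamma-delta T-cell sums overlapped (16.9 to 20.2 CPM in KO naive and 14.9 to 19.6 CPM in WT naive cells). Of these 6 markers 5 had positive and 1 a negative log2 fold change, and 0 were called. The part of these cells in the values of the 3 RABs was not tested.

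The KO effect differed between effector and naive cells for 0 of 36 RABs by edgeR, and for 0 by DESeq2 and limma-voom, where 0.145% of all genes were called (0.0189% higher and 0.126% lower), and 7 RABs, or 19.4%, had an unadjusted p under 0.05, beside 9.2% of all genes. The smallest adjusted p was that of Rab19 (a difference of -0.42 ± 0.11 on the log2 scale, edgeR adjusted p = 0.14), with log2 KO effects of -0.10 in effector cells and 0.31 in naive cells. Rab40c, like Rab8a, had KO libraries on opposite sides of WT in the 2 states, averaging 28.4 CPM in KO against 26 CPM in WT effector cells and 25 CPM in KO against 26.5 CPM in WT naive cells, and its difference did not pass (edgeR adjusted p = 0.47).

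Several RABs come as closely related genes that take similar routes, and their balance can be read per length. Rab8b held 62, 60.9 and 59.9% of the summed FPKM of Rab8b and Rab8a in KO effector cells and 57.6, 55.3 and 57.7% in WT effector cells, against 30.3, 33.3 and 33% in KO naive and 32.7, 33 and 33.7% in WT naive cells. The pair was thus mostly Rab8a in naive and mostly Rab8b in effector libraries, and the KO effector share lay 4.1 points above the WT one with no overlap. Rab11a held 39.8 ± 1.2% of its pair with Rab11b in KO effector cells, against 36.5 ± 1.6% in WT effector cells, and Rab1a 29.5 ± 1.6% of its pair with Rab1b, against 26.6 ± 0.91% (SD, n = 3 each). Rab3a held 49.9 ± 1.6% of its pair with Rab3d in KO effector cells, against 46.7 ± 0.91% in WT effector cells. For these pairs, chosen after their values were seen, KO and WT effector libraries did not overlap. They did overlap for the shares of Rab2b, Rab6b, Rab27b, Rab33a and Rab40b in their pairs with Rab2a, Rab6a, Rab27a, Rab33b and Rab40c. The exact two-sided permutation test gave p = 0.1 for each difference between KO and WT effector cells without overlap, that of Rab8b included. This is the smallest value that 3 libraries against 3 allow, and the shares were tested in no other way. How often pairs of other genes lacked overlap was not examined. Reads that fit both genes of a pair could be split between them in a way the sources used here do not state.

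**Figure D5:**
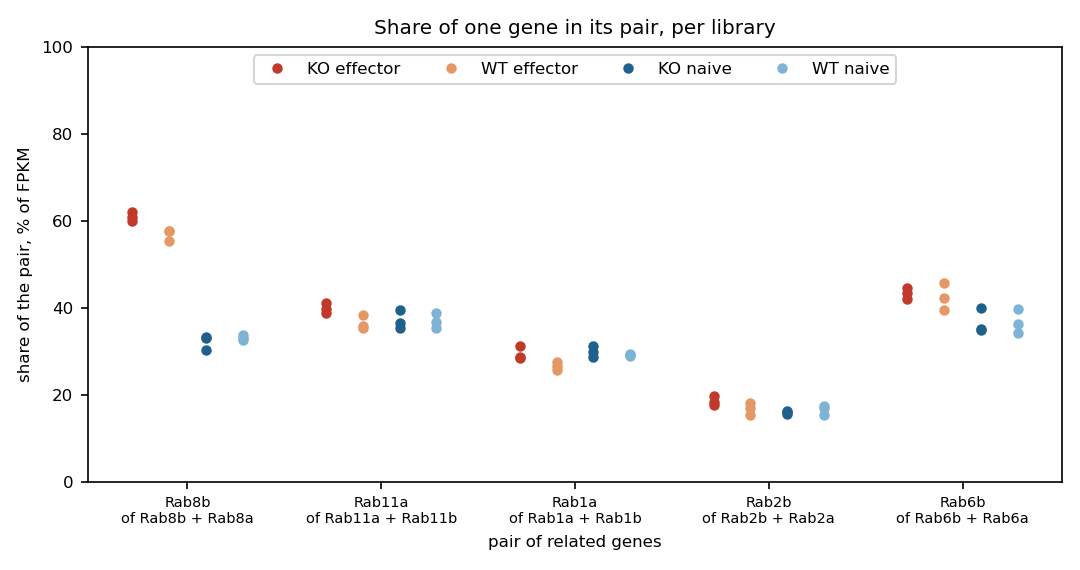
Share of the first gene in the summed FPKM of 5 pairs of related RAB genes (y axis, percent, 0 to 100), per library (points) for KO effector, WT effector, KO naive and WT naive cells. The share of Rab8b stands at 55.3 to 62% in effector libraries and at 30.3 to 33.7% in naive ones.

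Genes that act on these RABs were compared between the states as well. The 6 lists that follow are described in WT effector against WT naive cells by their counts and their median log2 fold change, which was 0.01 over all genes. Of all genes, 56.2% were called, 30.2% as higher and 25.9% as lower, and of the 115 genes tested in the 6 lists 78 were called, or 68%. Of the 115, 11 had under 30 reads in some group. Without them 68 of 104 were called, or 65.4%, beside 55.1% of all genes with at least 30 reads in each group. The medians without them were 0.24 for TBC and RAB3GAP genes, 0.39 for secretory effectors and 0.17 for the effectors of recycling, late-endosome and Golgi RABs. Of 37 TBC-domain and RAB3GAP genes tested, 21 rose and 5 fell (70.3% called, median 0.25). Tbc1d4, which acts on RAB10 and RAB8A in human and mouse cells, averaged 319 ± 32.6 CPM in KO effector and 258 ± 18.9 in WT effector cells, against 41.8 ± 2.28 in KO naive and 45 ± 4.2 in WT naive cells (SD, n = 3 each), a log2 fold change of 2.52 in WT cells (edgeR adjusted p = 2.4e-13). Rabgap1l rose by 1.15 and Tbc1d2b by 0.73 in WT effector cells on the log2 scale, and Tbc1d16, which acts on RAB4A in human cells, fell to 10.9 CPM in WT effector cells, against 43.3 CPM in WT naive cells (edgeR adjusted p = 9.6e-15, 3.5e-12 and 5.3e-17).

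Of 21 exchange factors tested, 8 rose and 6 fell (66.7% called, median -0.00). Rab3ip (Rabin8), which loads RAB8, fell to 23.8 ± 1.59 CPM in WT effector cells, against 74.9 ± 2.93 in WT naive cells (SD, n = 3 each, log2 fold change -1.66, edgeR adjusted p = 2.3e-16). Dennd4c, which loads RAB10, rose by 1.10, Dennd5a by 0.99 and Ric1, of the RAB6 exchange factor, by 0.93 on the log2 scale (edgeR adjusted p = 5.5e-15, 6.2e-14 and 1.8e-12). Of 14 TRAPP subunits, 3 rose and 2 fell (35.7% called, below the share of all genes, median 0.04): Trappc12 had a log2 fold change of -0.21, Trappc9 and Trappc1 of 0.26 and Trappc4 of 0.15. The Trappc4 call was lost under 9 of 20 alternatives, among them the fits without WT naive library 1 or 3, WT effector library 4 or 5 or KO naive library 8 or 9. Of 7 genes that prenylate or extract RABs, 1 rose and 3 fell (57.1% called, near the share of all genes, median -0.16). Rabggtb and Rabggta, the subunits of the RAB geranylgeranyl transferase, fell by 0.48 and 0.16 and Chm, a RAB escort protein, fell by 0.35 on the log2 scale, while the GDP dissociation inhibitor Gdi2 rose by 0.18 (edgeR adjusted p = 7.3e-07, 0.015, 4.0e-04 and 0.0011). The Rabggta call was lost without WT naive library 2 or 3 or WT effector library 4.

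Effectors of secretory RABs had 9 rises and 4 falls among 14 tested (92.9% called, median 0.56). Sytl3, a synaptotagmin-like protein that binds RAB27A, was at 26.6 ± 1.07 CPM in WT effector cells, against 0.562 ± 0.289 in WT naive cells, and Sytl2, of the same family, at 78.8 ± 6.96 against 27.8 ± 2.02 CPM (SD, n = 3 each, log2 fold changes 5.49 and 1.50, edgeR adjusted p = 5.6e-18 and 9.8e-14). Sytl3 was near the floor in WT naive cells, and its log2 fold change ran from 3.16 to 6.06 over the alternatives. Ehbp1l1, a RAB8 effector, rose by 1.25 and Mical1, which binds several RABs, by 0.72 on the log2 scale. Of 22 effectors and regulators of recycling, late-endosome and Golgi RABs, 12 rose and 4 fell (72.7% called, median 0.28). Rilpl2, which binds phosphorylated RAB8 and RAB10, averaged 75.7 CPM in WT effector cells, against 13.5 CPM in WT naive cells, the RAB11 effector Rab11fip1 rose by 1.40, the RAB7 kinase Lrrk1 by 5.84, and Ppm1h, a phosphatase of RAB8A and RAB10 in human cells, fell to 118 CPM in WT effector cells, against 221 CPM in WT naive cells (edgeR adjusted p of these 4 between 5.6e-17 and 4.0e-15). The log2 fold change of Lrrk1 ran from 1.48 to 5.94 over the alternatives, so its size depends on the method. The filter on low counts keeps genes such as Sytl3 and Lrrk1 through their effector libraries, so their calls were close to fixed in advance.

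Between KO and WT effector cells, 6 of the 115 pathway genes were called, or 5.2%, beside 3.16% of all genes. Sytl2 was at 62.8, 53.1 and 55 CPM in KO effector cells, against 70.8, 82.1 and 83.4 CPM in WT effector cells, a log2 fold change of -0.47 ± 0.071 (edgeR adjusted p = 6.1e-04) that passed under all 20 alternatives. Sytl3 was at 20.6, 17.2 and 19 CPM in KO effector cells, against 25.4, 26.9 and 27.5 CPM in WT effector cells, with -0.49 ± 0.1 (edgeR adjusted p = 0.007). All KO libraries of both RAB27 effectors lay below all WT libraries, beside the marker sums given with Rab8a, whose part was not tested. Rilpl2 was at 84, 108 and 96.7 CPM in KO effector cells, against 74.8, 75.1 and 77.2 CPM in WT effector cells, with 0.35 ± 0.069 (edgeR adjusted p = 0.0054). Of the TBC genes 3 rose: Rabgap1l by 0.26, Tbc1d8b by 0.33 and Tbc1d4 by 0.31 on the log2 scale (edgeR adjusted p = 0.0061, 0.03 and 0.034). Without KO effector library 11 the calls of Sytl3, Rilpl2, Tbc1d4 and Tbc1d8b were lost. Those of Tbc1d4 and Tbc1d8b were also lost without WT effector library 5 or 6 and with only the groups compared, that of Tbc1d4 without KO naive library 8 and that of Tbc1d8b without KO effector library 10. With limma on log2 of FPKM plus 1 or 0.1, the calls of Rabgap1l, Rilpl2, Tbc1d4 and Tbc1d8b were lost (adjusted p = 0.057 to 0.15), and with 0.1 that of Sytl3 too (adjusted p = 0.28). In naive cells Ehbp1l1 alone of the 115 was called, or 0.87%, beside 1.18% of all genes, at 69.2, 67.6 and 73.4 CPM in KO against 59.1 to 61.5 CPM in WT cells (0.22 on the log2 scale, edgeR adjusted p = 0.027). The call was lost without WT naive library 2 or 3 or KO naive library 7, 8 or 9 and with limma on log2 of FPKM plus 1 or 0.1. For none of the 6 pathway lists did a gene pass the test of a difference between the KO effects in the 2 states.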

How the data were processed

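Libraries of RNA from the sorted cells used the TruSeq Stranded mRNA kit, per the labels' protocols. Both deposited tables cover the same 12 libraries, 1 as raw counts per gene and 1 as FPKM (counts per length and library size), per the file headers. The submitters' processing notes name STAR, Picard, mm10, GRCm38 and DESeq2 1.30.0 without saying what each was used for. The counter and strand setting were not given in the sources used here. RAB members and lists were chosen with earlier results of these data known.

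The counts of all 12 libraries entered 1 robust quasi-likelihood model of edgeR 4.0.16 (R 4.3.3), with the 4 groups as coefficients, on the 15905 genes that filterByExpr kept. TMM factors were 0.968 to 1.04 and the biological coefficient of variation 5.21%. Calls are at a Benjamini-Hochberg adjusted p below 0.05 over those genes. CPM are TMM-normalised, and FPKM, used for levels across genes, are as deposited. Replicate libraries were kept apart, since their counts differed with a chi-square per gene of 2.25 to 5.89. Values of every library are given for called members in KO against WT (or the 3 of smallest p where none was called) and for the 8 largest rises and falls in WT effector cells whose libraries did not overlap and that reached 5 CPM. The 5 RABs of highest FPKM, up to 4 called genes of each pathway list by p for WT effector against naive cells, and every called pathway gene for KO against WT were named too. The gene pairs, overlapping genes, pseudogenes, Rab40c, Rab4a and other values were chosen after they were seen. Alternatives were DESeq2 (1.42.0) and its size factors, limma-voom (limma 3.58.1), no filter, a mean of at least 5 CPM, the compared groups alone, limma on log2 of FPKM plus 1 or 0.1, and each library left out. Overlaps of exons were taken from GENCODE M21. Intervals cover counting error only where reads are given. Counts without genes under 30 reads in some group were chosen after seeing the data. 1 of the naive-state markers is not reported here.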

Additional observations from a re-analysis of the deposited data

How the results depend on the processing

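No result reversed under any alternative. In KO against WT naive cells, the count of RABs called was 0, became 2 with no filter on low counts (Rab19 higher, Rab27a lower) and 1 with only the groups compared (Rab27a), and was 0 to 1 over the fits that left out 1 library each. In effector cells it was 1 (Rab8a), became 0 with only the groups compared and 0 with limma on log2 of FPKM plus 0.1, and was 0 to 1 over the fits without 1 library. For the difference of the KO effects it was 0 and became 1 with no filter (Rab19, lower). The causes were not tested. In effector against naive cells the count was 21 to 26 in KO (25 as reported) and 16 to 22 in WT (21 as reported), and 19 of 25 and 16 of 21 calls passed under every alternative that tested them.

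Over all genes, the count of calls in KO against WT ran from 139 to 959 in effector cells (503 as reported) and from 40 to 528 in naive cells (187), and for the difference of the KO effects from 8 to 277 (23). No scaling moved the median of all genes by 0.1 on the log2 scale. Where a library was left out, the other 2 of its group carried the estimate and all groups shared 1 spread. The difference of the KO effects has no fit with fewer groups. No paired analysis was possible because the columns of the tables carry library numbers from 1 to 12 and not the replicate numbers of the labels. The depth limits Rab26, Rab27b, Rab36, Rab39b and Rab43, whose KO effects have wide intervals, and the 16 RABs with at most 67 reads.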

Other observations

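Rab44, a large RAB known from mast cells and other myeloid cells, had too few reads to be tested. It had 17 reads in KO effector cells, against 4 in WT effector cells, and 13 in KO naive cells, against 1 in WT naive cells. The 8 myeloid markers summed to 16.1 to 29.1 CPM in KO effector libraries, against 3.5 to 22.1 CPM in WT effector libraries, and to 11.6 to 19.6 CPM in KO naive libraries, against 2.79 to 11.4 CPM in WT naive libraries. The part of myeloid cells in the reads of Rab44 was not tested.

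Processed pseudogenes of RABs were counted as genes of their own. Rab7-ps1 averaged 34.1 CPM over the 12 libraries, Rab11b-ps2 6.61 CPM and Rab9b-ps1 1.18 CPM, while Rab9b had no read in any library. The counting of reads that fit both a RAB and its pseudogene was not given in the sources used here.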
